A study of Mus musculus with 9 samples.

Results

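The genes described here are the Vps, Chmp and Snx genes of endosomal sorting, followed in mouse neurons that were depleted of Tdp-43. They were taken by a rule on names: a platform symbol that begins with Vps, Chmp or Snx and goes on with a digit, without Chmp2b. The choice was made with earlier results of these data known. The rule gave 70 genes, 31 named Vps, 8 named Chmp and 31 named Snx, of which 69 had enough bright probe sets to be tested among 16770 genes in all. Symbols were updated, so Snx26 appears as Arhgap33 and Vps24 as Chmp3. Chmp1b was not tested: 2 of its 3 probe sets were bright enough, with mean log2 values of 9.92 and 9.75, and the third lay below the limit at 5.56. Chmp4c with 3 and Snx33 with 4 kept probe sets are the genes just inside that limit.

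RNA came from cortical neurons of C57BL/6 mouse embryos at embryonic day 15, cultured with an overnight dose of the antimitotic AraC. On day 5 the cultures took up, within 4 h, a lentivirus that carried a short hairpin RNA. The groups are shCont, the control hairpin, and shTdp-43-1 and shTdp-43-2, both directed at mouse Tdp-43. Each has 3 arrays, and all cultures were harvested on day 11. All 9 cultures thus share the AraC and the virus, and the infection was of whole cultures, so a value averages over every cell present. The design text of the series speaks of motor neurons and of 11 days after transfection. The sample labels, which speak of cortical neurons, infection on day 5 and harvest on day 11, were followed. Affymetrix exon arrays gave a log2 value for each probe set, and a gene's value is the mean over its kept probe sets.

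Endosomal sorting decides whether a membrane protein taken up by the cell is recycled or degraded. Retromer (Vps26, Vps29 and Vps35) and the sorting nexins, which bind phosphoinositides through a PX domain, draw cargo into tubules that return to the Golgi or the cell surface. The ESCRT complexes, built from Vps and Chmp proteins, wrap ubiquitinated cargo into vesicles inside the endosome and are taken apart by the ATPase Vps4. Tethering complexes then bring membranes together, HOPS and CORVET at late and early endosomes and GARP and EARP at the Golgi and recycling endosomes. Neurons rely on these routes to move receptors at synapses, and mutation of human VPS35 causes an inherited form of Parkinson disease. Tdp-43, the product of Tardbp, binds RNA and acts in its splicing and turnover.

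Medians of all tested genes ran from 8.75 to 8.94 over the 9 arrays, and medians of the sorting genes from 9.94 to 10.06. Over all probe sets the medians were 6.04 to 6.06 in shCont, 6.15 to 6.19 with shTdp-43-1 and 6.06 to 6.09 with shTdp-43-2. What centring the arrays on their medians changes is given below. Tardbp read 9.77, 9.94 and 10.06 on the shCont arrays, 7.84 to 8.55 with shTdp-43-1 and 7.90 to 8.58 with shTdp-43-2, so both hairpins lowered their target (adjusted p = 0.000349 and 0.000109, limma). The labels do not say that arrays of a group came from separate cultures, so every p-value measures only the spread between these arrays. Averaged over their list, pan-neuronal markers were level, with mean log2 values from 11.9 to 12.1 in all 3 groups (none of 4 called). Of 7 astrocyte markers 1 was called lower with shTdp-43-1 (Aqp4) and 3 with shTdp-43-2 (Aqp4, Slc1a2 and Gja1). Of all genes 5.96% and 14.1% were called lower, and 5.16% and 7.76% higher. With shTdp-43-2 Gfap (0.05), Slc1a3 (0.04) and Aldh1l1 (0.12) had values above 0 and S100b below 0 (-0.17), none called. Slc1a2 was above 0 with shTdp-43-1 (0.13, not called). The mean level of the 7 went from 10.0 to 10.2 in shCont to 9.85 to 9.95 with shTdp-43-2. Of 6 markers of fibroblasts and pericytes 2 and 3 were called lower, all among Dcn, Pdgfrb and Rgs5, while the collagen genes Col1a1, Col1a2 and Col3a1 had values above 0 with both hairpins (0.14 to 0.15, none called). The list's mean level went from 8.61 to 8.73 in shCont to 8.42 to 8.60 and 8.21 to 8.38 with the hairpins. Of 6 excitatory neuron markers 1 rose and 1 fell with shTdp-43-1 and 1 fell with shTdp-43-2, of 7 inhibitory neuron markers 2 rose and 1 fell and then 1 rose and 3 fell, and none of the 7 microglia or 6 oligodendrocyte lineage markers was called. Of 4 endothelial and 6 progenitor markers 1 each rose with shTdp-43-2. The part of these shifts in the changes below was not tested, and in such cultures fewer cells of a type and less RNA per cell cannot be told apart.

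The share of sorting genes that was called lay below the share of all genes with shTdp-43-1 and near it with shTdp-43-2. A gene was called where limma's adjusted p (Benjamini-Hochberg over all 16770 genes) was under 0.05, and both hairpins were set against the same 3 shCont arrays. With shTdp-43-1, 4 of the 69 genes were called, 2 higher (Vps52, Vps26b) and 2 lower (Vps39, Snx18), which is 5.8% against 11.1% of all genes (5.16% higher and 5.96% lower). With shTdp-43-2, 17 were called, 4 higher (Vps52, Vps36, Vps26b and Vps26a) and 13 lower, 24.6% against 21.9% of all genes (7.76% higher and 14.1% lower). In the mean of both hairpins 12 were called, 4 higher and 8 lower, 17.4% against 19.3% (7.42% higher and 11.9% lower).

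Vps52 and Vps26b rose and Vps39 fell with both hairpins, 3 genes or 4.35%, where the same held, in 1 direction, for 6.45% of all genes (2.95% higher and 3.49% lower). The typical change was small. The median size of a change was 0.101 on the log2 scale with shTdp-43-1 and 0.167 with shTdp-43-2, and over all genes it was 0.143 and 0.151. The signed medians were -0.04 and -0.02 for the sorting genes and 0.01 and -0.01 for all genes.

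The arrays of a hairpin lay wholly above or below the control arrays for 16 sorting genes (23.2%; all genes 35%) with shTdp-43-1 and for 30 (43.5%; all genes 38.7%) with shTdp-43-2. All 6 hairpin arrays did so for 10 genes (14.5%; all genes 18.7%). Direction with shTdp-43-2 hung on how the arrays were scaled. The split of 4 higher and 13 lower became 11 and 7 when each array was centred on its median gene, and 10 and 12 after quantile normalization, while 11 and 15 of the 17 calls were kept. Of all called genes 64.5% were lower as deposited and 44.1% after centring. The 4 calls with shTdp-43-1 were kept under both scalings.

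**Figure D1:**
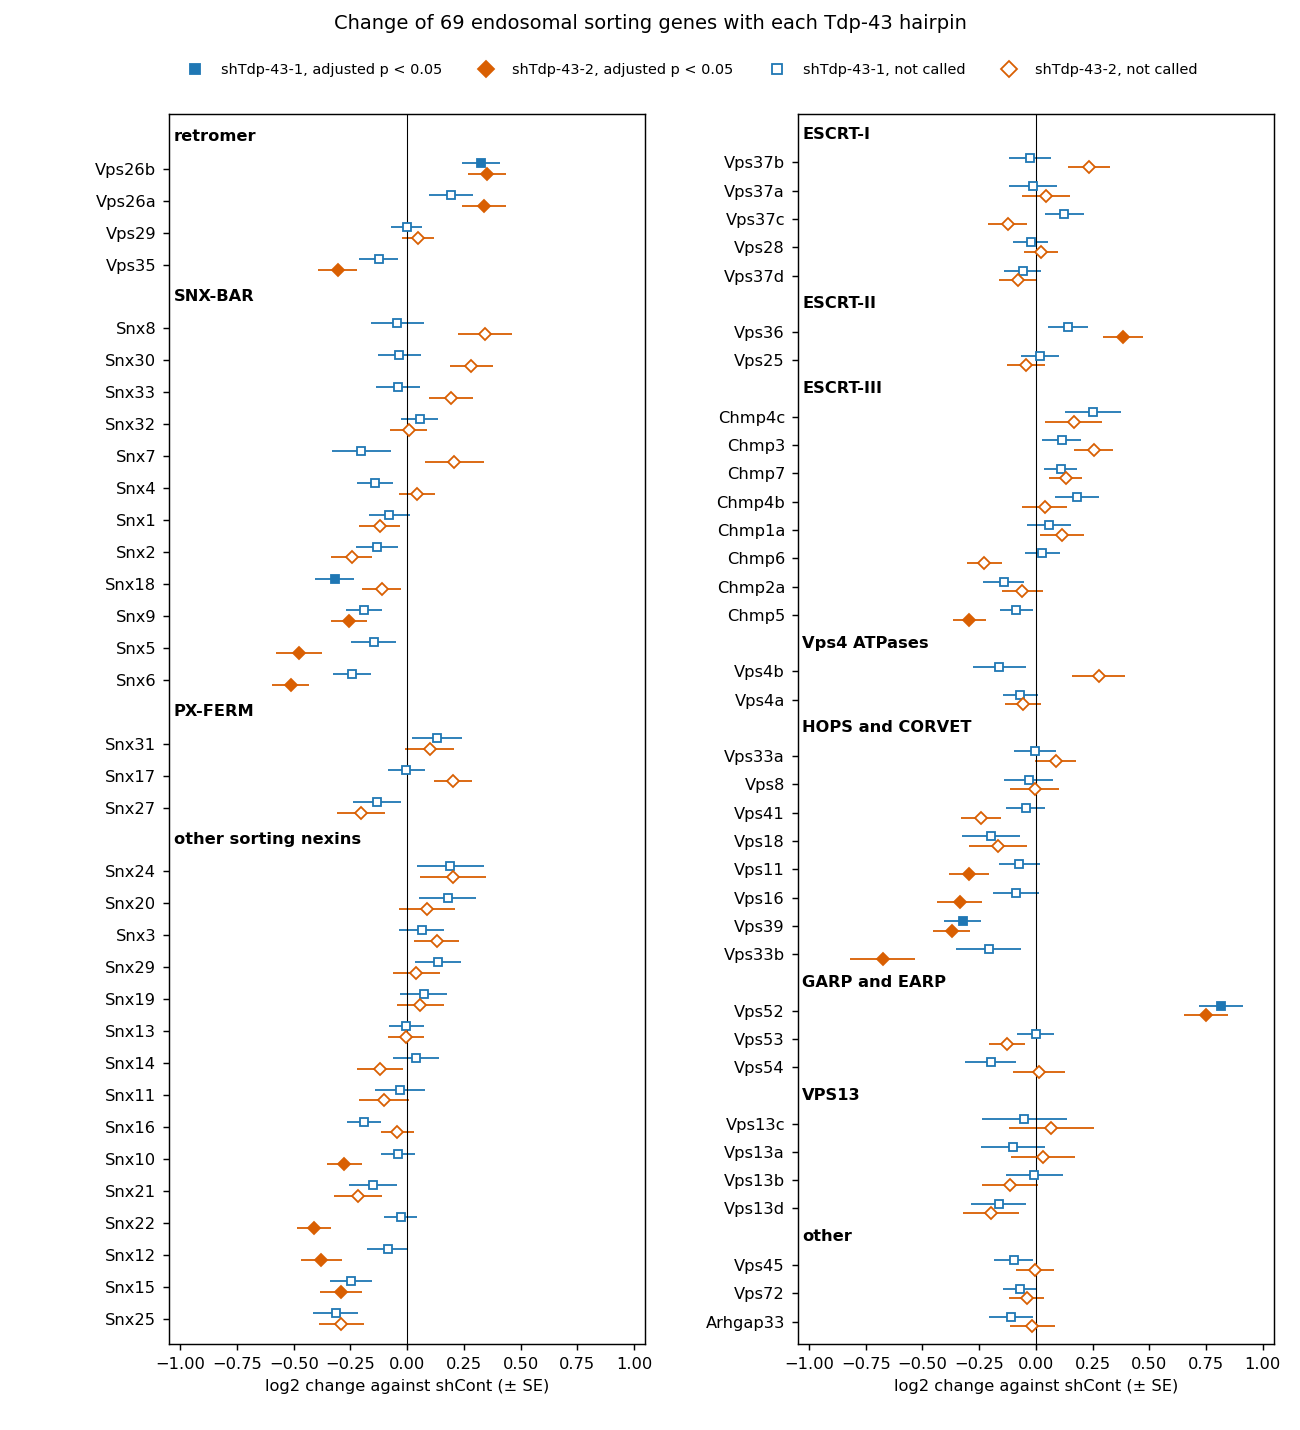
Log2 change of each of the 69 tested genes against shCont with shTdp-43-1 (blue squares) and shTdp-43-2 (orange diamonds), grouped by complex. Bars are the standard error of the limma fit and filled symbols are called at an adjusted p under 0.05. Vps52 stands at the right with both hairpins, at 0.82 and 0.75, Vps39 is filled with both on the left at -0.32 and -0.37, and the median of the 69 values is -0.04 and -0.02.

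The retromer trimer did not move as a unit. Its alternative arms rose, Vps26b with both hairpins and Vps26a with shTdp-43-2. Vps29 was called with neither, and Vps35, the scaffold to which the others bind, fell with shTdp-43-2. Vps26b, the form enriched in brain, read 11.07, 11.13 and 11.23 on the shCont arrays, 11.57, 11.43 and 11.41 with shTdp-43-1, and 11.43, 11.59 and 11.47 with shTdp-43-2. Every hairpin array lay above every control array. The rise was 0.32 ± 0.0841 (SE; adjusted p = 0.0307) and 0.35 ± 0.0841 (adjusted p = 0.011), or 1.25-fold and 1.28-fold, and all 10 of its probe sets were higher with each hairpin. With shTdp-43-1 the call held in 4 of the 9 fits that left out an array. It was lost without shCont replicate 1 or 2 (adjusted p = 0.119 and 0.101) and without shTdp-43-1 replicate 1, 2 or 3 (0.0806, 0.0653 and 0.0584). With shTdp-43-2 it was lost without shCont replicate 1 (0.0517).

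Vps26a, the widely expressed form, read 10.10, 10.25 and 10.45 in shCont, 10.41, 10.47 and 10.50 with shTdp-43-1, and 10.51, 10.67 and 10.64 with shTdp-43-2. The shTdp-43-1 arrays overlapped the highest control array and the shTdp-43-2 arrays stood clear of it. Its change was 0.19 ± 0.0966 (adjusted p = 0.223) and 0.34 ± 0.0966 (adjusted p = 0.0269), and its 14 probe sets were all higher with each hairpin. The call with shTdp-43-2 was lost without shCont replicate 1 or 2 (adjusted p = 0.119 and 0.0798), without shTdp-43-2 replicate 2 or 3 (0.0789 and 0.0681), and with the 2 weaker filters on dim probe sets (0.0563 and 0.0603).

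Vps35 read 11.38, 11.41 and 11.49 in shCont, 11.23, 11.38 and 11.30 with shTdp-43-1, and 10.98, 11.22 and 11.16 with shTdp-43-2. Both hairpin groups lay below the controls, the first by a margin of less than 0.01. The change was -0.13 ± 0.086 (adjusted p = 0.358) and -0.31 ± 0.086 (adjusted p = 0.0248), and all 21 probe sets were lower with each hairpin. The second call was lost without shCont replicate 1, 2 or 3 (adjusted p = 0.0526, 0.0625 and 0.087), without shTdp-43-2 replicate 1 (0.105), after centring (-0.22, adjusted p = 0.106) and with the median of probe sets (0.0534).

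Vps29, which joins Vps35 and carries a phosphoesterase-like fold, read from 11.79 to 11.90 on all 9 arrays. Its 95% intervals were -0.15 to 0.15 with shTdp-43-1 and -0.10 to 0.20 with shTdp-43-2, with adjusted p of 0.985 and 0.672. Of its 7 probe sets 3 were higher with the first hairpin and 6 with the second. The difference between the hairpins was 0.15 ± 0.0966 for Vps26a and -0.18 ± 0.086 for Vps35, neither of them called (adjusted p = 0.387 and 0.216).

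GARP and EARP share the subunits Vps51, Vps52 and Vps53, and Vps54 marks GARP. Vps52 had the largest change of all sorting genes with both hairpins. It read 9.67, 9.47 and 9.64 in shCont, 10.55, 10.41 and 10.27 with shTdp-43-1, and 10.40, 10.41 and 10.22 with shTdp-43-2. The lowest hairpin array, 10.22, lay well above the highest control array. The rise was 0.82 ± 0.0973 (adjusted p = 0.000559) and 0.75 ± 0.0973 (adjusted p = 0.000307), or 1.76-fold and 1.68-fold, and the hairpins differed by -0.07 with a 95% interval of -0.28 to 0.14. All 23 probe sets along the gene were higher, by 0.23 to 1.12 and by 0.28 to 1.41. The call held with each hairpin in all 17 other settings.

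Its partners did not follow. Vps53 changed by 0.00 and -0.13 (95% intervals -0.18 to 0.18 and -0.30 to 0.05), and Vps54 by -0.20 and 0.01 (-0.45 to 0.05 and -0.24 to 0.26), with none of the 4 values called. Vps51 and Vps50, the subunit that marks EARP, stood under older names on the platform and belong to the list of tethering partners. None of the 7 tested genes of that list was called with either hairpin (all genes 11.1% and 21.9%). Their changes ran from -0.13 to 0.03 with shTdp-43-1 and from -0.19 to 0.16 with shTdp-43-2.

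**Figure D2:**
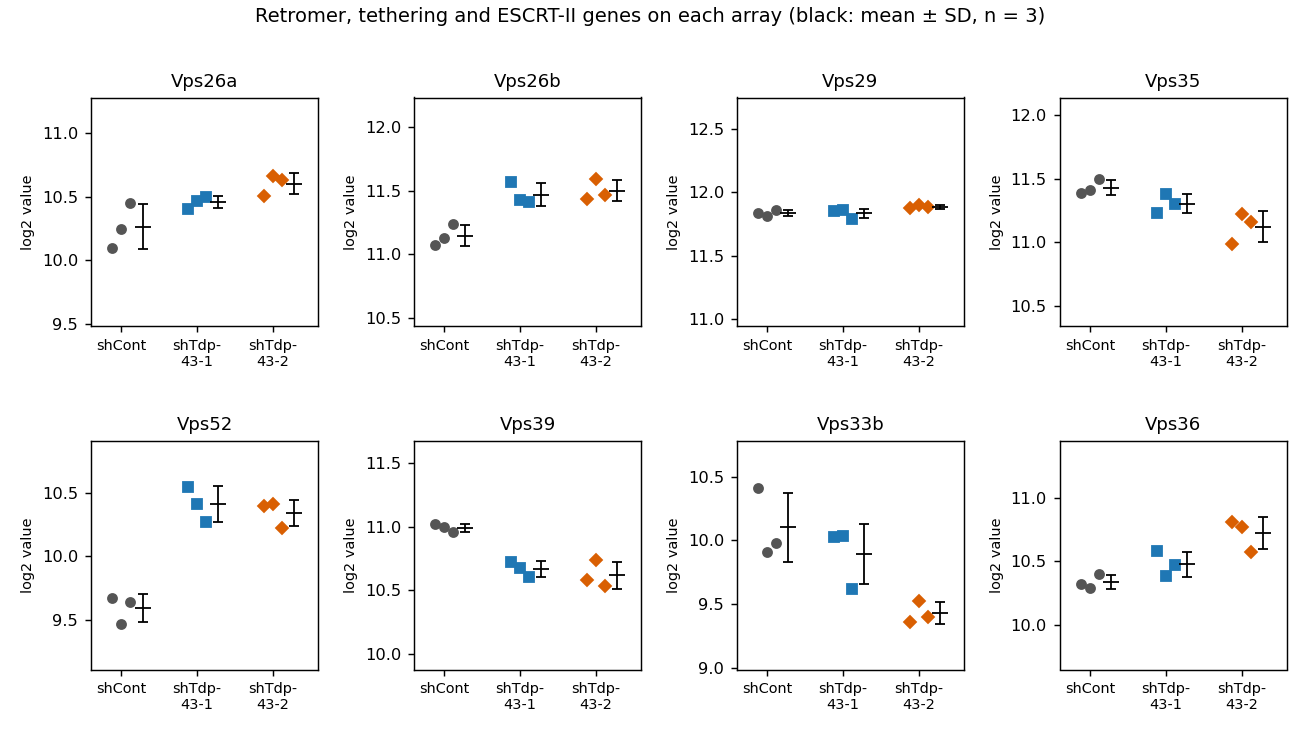
Log2 value of 8 genes on each of the 9 arrays, by group (grey circles shCont, blue squares shTdp-43-1, orange diamonds shTdp-43-2), with the mean and SD of 3 arrays in black beside them. Every panel spans the same number of log2 units. Vps52 is about 9.6 in shCont and 10.2 to 10.6 with the hairpins, Vps29 lies between 11.79 and 11.90 on every array, and Vps33b is at 9.36 to 9.52 with shTdp-43-2, below all other arrays.

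Promoter sequences of the genes were read from RefSeq (GRCm38.p6), in windows from 250 bases before to 50 bases after each transcript start. Entries matched 46 of the 70 genes, with 57 starts. The 2 genes that rose with both hairpins have starts that face a neighbouring gene closely, so the stretches between the neighbours are short. They are shown because they lie immediately before the start of Vps52 (the most upstream of its 3) and Vps26b, chr17:33955666-33955799 on the plus strand (after Rps18) and chr9:27030095-27030164 on the minus strand (after Ncapd3).
Vps52: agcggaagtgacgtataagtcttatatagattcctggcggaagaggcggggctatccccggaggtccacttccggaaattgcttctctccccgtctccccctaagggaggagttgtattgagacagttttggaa
Vps26b: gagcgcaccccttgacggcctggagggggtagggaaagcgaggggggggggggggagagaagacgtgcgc

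The motif searched was CACGTG, the core of the element through which the transcription factor TFEB and its relatives act on lysosomal genes, and a longer palindrome of 10 bases in which the core follows GT and precedes AC. Both read the same on the other strand. CACGTG was in 7 of the 57 sorting gene promoters (12.3%) and in 2349 of all 32851 (7.15%). The longer form was in 4 of 57, those of 3 genes, and in 107 of all (0.326%). The windows of Vps52 and Vps26b hold neither. The 3 genes with the longer form are shown with 10 bases on each side and the palindrome in capitals: Vps16 at chr2:130424290-130424319 (plus strand), Vps26a at chr10:62486970-62486999 (minus strand) and Vps33a at chr5:123573010-123573039 (minus strand).
Vps16: aggcggcctcGTCACGTGACcccgaagggc
Vps26a: cgcacggctcGTCACGTGACaactagctct
Vps33a: tgaacgtcccGTCACGTGACgcaggcggcg
It begins 20, 184 and 14 bases before the start in that order, counted for Vps26a from the most upstream start that has it. These 3 genes had different values with shTdp-43-2: Vps16 was called lower (-0.34), Vps26a was called higher (0.34), and Vps33a was not called (0.09, 95% interval -0.11 to 0.29).

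HOPS and CORVET share the core Vps11, Vps16, Vps18 and Vps33a; Vps39 and Vps41 mark HOPS and Vps8 marks CORVET. Of the 8 tested genes in this group, which includes the homologue Vps33b, 1 was called lower with shTdp-43-1 and 4 with shTdp-43-2, and none was called higher (all genes 5.96% and 14.1% lower). The group median was -0.08 and -0.27. All 8 values were below 0 with shTdp-43-1 and 7 with shTdp-43-2, where 49.0% and 51.3% of all genes were below 0. After centring 6 were below 0 with each hairpin, and 3 rather than 4 were called with the second. That scaling called 23.2% of all genes with shTdp-43-2, 44.1% of them lower.

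Vps39, which binds the small GTPase Rab7 through HOPS, read 11.02, 11.00 and 10.96 in shCont, 10.72, 10.68 and 10.60 with shTdp-43-1, and 10.58, 10.74 and 10.54 with shTdp-43-2. All 6 hairpin arrays lay below all 3 controls, which were close together. It fell by 0.32 ± 0.0803 (SE; adjusted p = 0.0257) and by 0.37 ± 0.0803 (adjusted p = 0.00665), or 1.25-fold and 1.29-fold. All 33 probe sets were lower with each hairpin. With shTdp-43-2 the call held in all 17 other settings. With shTdp-43-1 it was lost without shCont replicate 1, 2 or 3 (adjusted p = 0.0935, 0.0829 and 0.0559), without shTdp-43-1 replicate 2 or 3 (0.0709 and 0.0931) and with the median of probe sets (0.0631).

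Vps33b, which works with Vipas39 rather than in the canonical tethers, read 10.41, 9.91 and 9.98 in shCont, 10.03, 10.04 and 9.62 with shTdp-43-1, and 9.36, 9.52 and 9.40 with shTdp-43-2. The control arrays were spread out and the shTdp-43-2 arrays lay below all of them. The change was -0.21 ± 0.143 (adjusted p = 0.36) and -0.68 ± 0.143 (adjusted p = 0.00583, 1.6-fold lower), and all 27 probe sets were lower with the second hairpin. That call held in all 17 other settings. The call in the mean of both hairpins (-0.44, adjusted p = 0.0282) was lost without shCont replicate 1, the highest control array (-0.29, adjusted p = 0.15). The difference between the hairpins was -0.47 (95% interval -0.78 to -0.15, adjusted p = 0.0567).

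Of the core subunits, Vps16 (-0.34, adjusted p = 0.0339) and Vps11 (-0.30, adjusted p = 0.0345) were called lower with shTdp-43-2. They are named after their values were seen. Vps16 lost its call without shCont replicate 1, 2 or 3 or shTdp-43-2 replicate 3 (adjusted p from 0.0572 to 0.116), and Vps11 without any of the shCont or shTdp-43-2 arrays (from 0.0535 to 0.135), after centring (0.0527) and with both weaker dim filters (0.0522 and 0.0567). Vps41 (-0.24, adjusted p = 0.0691), Vps18 (-0.17, adjusted p = 0.399), Vps8 (-0.01) and Vps33a (0.09) were not called with this hairpin.

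The SNX-BAR proteins combine the PX domain with a curved BAR domain that bends membrane into tubules. Of 12 tested, 1 was called lower with shTdp-43-1 (8.33%; all genes 5.96%) and 3 with shTdp-43-2 (25%; all genes 14.1%). The group median was -0.14 and -0.05, and 11 of 12 values were below 0 with the first hairpin and 6 with the second. After centring 8 were below 0 with shTdp-43-1, and with shTdp-43-2 the calls became 3 higher (Snx8, Snx30 and Snx33) and 2 lower (Snx5 and Snx6). That scaling called 23.2% of all genes with shTdp-43-2, 44.1% of them lower.

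Snx5 and Snx6 are interchangeable partners of Snx1 and Snx2 in the coat that carries cargo back from endosomes. Snx6 read 11.02, 11.08 and 11.12 in shCont, 10.78, 10.90 and 10.82 with shTdp-43-1, and 10.47, 10.68 and 10.54 with shTdp-43-2. The groups did not overlap and shTdp-43-1 lay between the other two. The change was -0.24 ± 0.0819 (adjusted p = 0.0793) and -0.51 ± 0.0819 (adjusted p = 0.00112, 1.43-fold lower), and all 11 probe sets were lower with each hairpin. The call with shTdp-43-2 held in all 17 other settings.

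Snx5 read 9.96, 10.05 and 10.27 in shCont, 9.81, 10.04 and 9.98 with shTdp-43-1, and 9.55, 9.71 and 9.58 with shTdp-43-2. The second hairpin's arrays lay below all others, and the first overlapped the controls. Its change was -0.15 ± 0.0995 (adjusted p = 0.35) and -0.48 ± 0.0995 (adjusted p = 0.00539, 1.39-fold lower), and the latter was lost with the median of probe sets (adjusted p = 0.08). For neither gene was the difference between the hairpins called (Snx5 -0.33, adjusted p = 0.0545; Snx6 -0.27, adjusted p = 0.0546). Their partners Snx1 (-0.08 and -0.12) and Snx2 (-0.13 and -0.25, adjusted p = 0.359 and 0.08) were not called.

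Snx9, Snx18 and Snx33 carry an SH3 domain as well and act in endocytosis. Snx18, named after its values were seen, read 10.04, 10.01 and 9.99 in shCont, 9.67, 9.73 and 9.68 with shTdp-43-1, and 10.01, 9.97 and 9.73 with shTdp-43-2. It was lower on all 3 arrays of the first hairpin (-0.32, adjusted p = 0.0367) and overlapped the controls with the second (-0.11, adjusted p = 0.404), and the difference of 0.21 between the hairpins was not called (adjusted p = 0.157). Leaving out any 1 of the shCont or shTdp-43-1 arrays ended the call (adjusted p from 0.0731 to 0.12), and with either weaker filter on dim probe sets the change was -0.10 (adjusted p = 0.452 and 0.465). Snx9 was called lower with shTdp-43-2 (-0.26, adjusted p = 0.0386) and kept this call in 3 of 17 other settings and 2 of 9 fits without an array (those without shTdp-43-1 replicate 1 or shTdp-43-2 replicate 1; otherwise adjusted p from 0.053 to 0.126).

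No gene of the PX-FERM class, Snx17, Snx27 and Snx31, which sort receptors for recycling, was called (all genes 11.1% and 21.9%). Snx27, the adaptor that links PDZ-binding cargo such as glutamate receptors to retromer, changed by -0.13 (95% interval -0.36 to 0.10) and -0.20 (-0.44 to 0.03). Snx17 changed by 0.00 (-0.19 to 0.18) and 0.20 (0.02 to 0.38; adjusted p = 0.111), and was called higher with shTdp-43-2 after centring.

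Of the 15 other sorting nexins none was called with shTdp-43-1 and 4 were called lower with shTdp-43-2 (26.7%; all genes 14.1%): Snx10, Snx12, Snx15 and Snx22. Snx22, a small nexin with a PX domain, separated the hairpins. It read 8.32, 8.34 and 8.27 in shCont, 8.32, 8.31 and 8.21 with shTdp-43-1, and 7.95, 7.84 and 7.90 with shTdp-43-2. The first hairpin overlapped the controls and the second lay below every other array. The change was -0.03 ± 0.074 (adjusted p = 0.823) and -0.41 ± 0.074 (adjusted p = 0.00237), and the difference between the hairpins was -0.38 ± 0.074 (adjusted p = 0.00711, limma), held in all 17 other settings. All 8 of its probe sets were lower with shTdp-43-2, and 4 of 8 with shTdp-43-1.

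Snx12, a PX-domain relative of the retromer cargo adaptor Snx3, was lower with shTdp-43-2 (-0.38, adjusted p = 0.011; lost without shTdp-43-2 replicate 1, 0.0503, and with the median of probe sets, -0.24, 0.289). Snx10 (-0.28, adjusted p = 0.0226) held in 4 of 9 fits without an array, being lost without shCont replicate 1, 2 or 3 or shTdp-43-2 replicate 1 or 3 (0.0514 to 0.08), and it was also lost after centring (0.0501), with the median of probe sets (0.0795) and with no dim filter (0.121). Snx15 (-0.29, adjusted p = 0.0435) held in 3 of 9, those without shCont replicate 3 or shTdp-43-1 replicate 1 or 3 (otherwise 0.0542 to 0.172). It was also lost after centring (0.103), quantile normalization (0.056), both weaker filters (0.0556 and 0.0598) and with the median of probe sets (0.135). These 3 genes are named after their values were seen. Snx3 itself changed by 0.06 and 0.13, with 95% intervals of -0.15 to 0.28 and -0.09 to 0.35.

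Snx25, which has a domain of the RGS type beside its PX domain, read 9.63, 9.70 and 9.73 in shCont, 9.41, 9.26 and 9.45 with shTdp-43-1, and 9.39, 9.58 and 9.22 with shTdp-43-2. All 6 hairpin arrays lay below the controls. Neither hairpin alone was called (-0.32 ± 0.0995, adjusted p = 0.0646; -0.29 ± 0.0995, adjusted p = 0.0583), while their mean was (-0.30 ± 0.0861, adjusted p = 0.03). That call was lost without shCont replicate 1, 2 or 3 (adjusted p = 0.0705, 0.0997 and 0.107), without shTdp-43-1 replicate 2 (0.0601) and with the median of probe sets (0.0511).

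**Figure D3:**
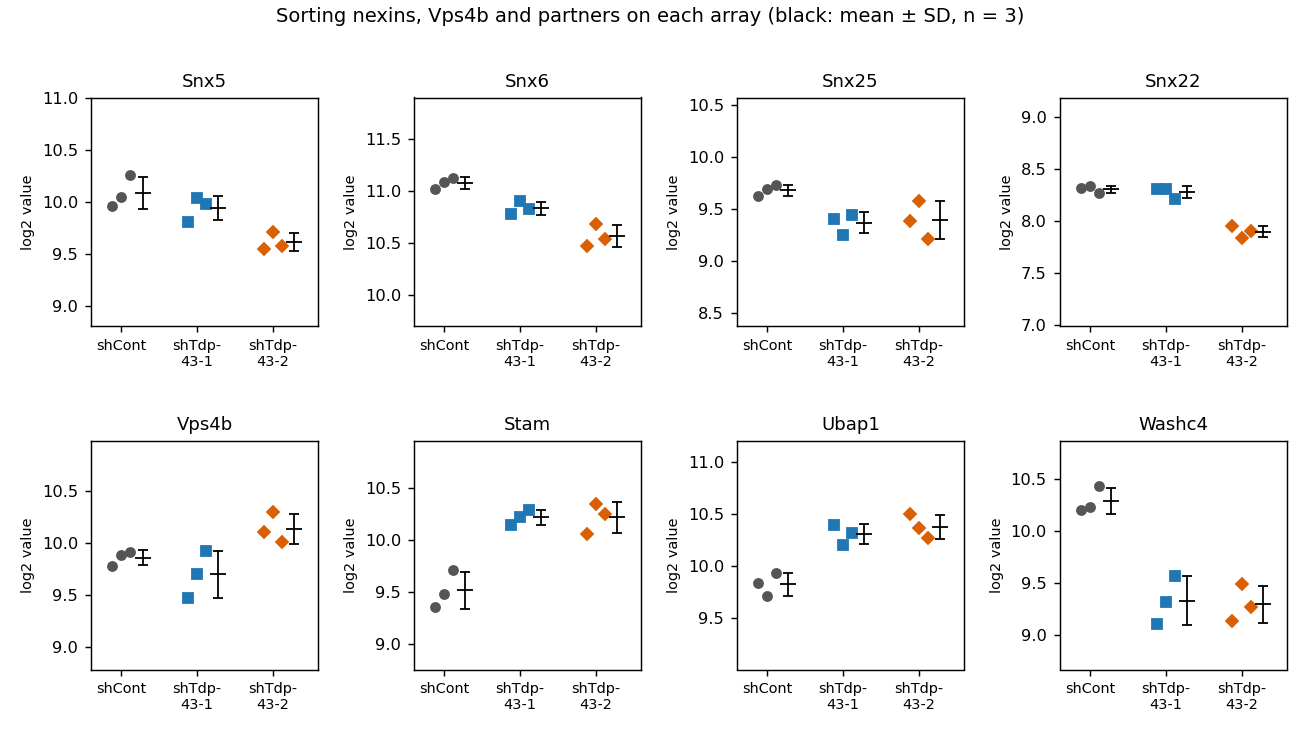
Log2 value of 4 sorting nexins, Vps4b and 3 partner genes on each array, drawn as in the plot of retromer and tethering genes, with the mean and SD of 3 arrays in black. Snx22 is at its control level with shTdp-43-1 and low with shTdp-43-2, Vps4b lies lower with the first hairpin than with the second, and Stam, Ubap1 and Washc4 are shifted alike by both.

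Of the 17 tested ESCRT and Vps4 genes none was called with shTdp-43-1 (all genes 11.1%) and 2, Vps36 higher and Chmp5 lower, with shTdp-43-2 (11.8%; all genes 21.9%). After centring 4 were called higher with shTdp-43-2 (Vps36, Vps37b, Chmp3 and Chmp7) and none lower. That scaling called 23.2% of all genes with shTdp-43-2, 44.1% of them lower. None of the 5 ESCRT-I genes was called: Vps28, which binds ESCRT-II, changed by -0.02 and 0.02 with 95% intervals of -0.19 to 0.15 and -0.15 to 0.19, and the 4 alternative Vps37 subunits ranged from -0.06 to 0.13 and from -0.12 to 0.24. In ESCRT-II, Vps36, the subunit that binds ubiquitin, read 10.32, 10.29 and 10.40 in shCont, 10.58, 10.38 and 10.47 with shTdp-43-1, and 10.81, 10.77 and 10.57 with shTdp-43-2. The second hairpin stood above all controls and the first overlapped them. The change was 0.14 ± 0.0892 (adjusted p = 0.322) and 0.38 ± 0.0892 (adjusted p = 0.00963, 1.3-fold higher), and the latter call held in all 17 other settings. Its partner Vps25 changed by 0.02 and -0.04 (95% intervals -0.16 to 0.20 and -0.22 to 0.14).

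Of the 8 tested ESCRT-III genes, which form the filaments that cut membrane, 1 was called. Chmp5, named after its values were seen, read 10.35, 10.36 and 10.34 in shCont, 10.21, 10.32 and 10.27 with shTdp-43-1, and 10.06, 9.99 and 10.10 with shTdp-43-2. The groups did not overlap. Its change was -0.09 ± 0.073 (adjusted p = 0.462) and -0.29 ± 0.073 (adjusted p = 0.0135). It held in all 9 fits that left out an array and in 15 of 17 settings. The other 7 ran from -0.14 to 0.25 with shTdp-43-1 and from -0.23 (Chmp6, adjusted p = 0.0532) to 0.26 (Chmp3, adjusted p = 0.0545) with shTdp-43-2. The call of Chmp5 was lost after centring (-0.21, adjusted p = 0.106) and with the median of probe sets (-0.20, adjusted p = 0.468).

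The paralogous ATPases Vps4a and Vps4b take ESCRT-III apart. Neither was called against shCont, and Vps4b differed between the hairpins. It read 9.78, 9.89 and 9.92 in shCont, 9.48, 9.71 and 9.92 with shTdp-43-1, and 10.11, 10.30 and 10.01 with shTdp-43-2. The first hairpin reached down from the control range and the second lay above it. The changes were -0.16 ± 0.116 (adjusted p = 0.381) and 0.28 ± 0.116 (adjusted p = 0.115), and the difference was 0.44 ± 0.116 (adjusted p = 0.0308). This call was lost without shTdp-43-1 replicate 1 or 2 (adjusted p = 0.0867 and 0.0758), shTdp-43-2 replicate 1 or 2 (0.0791 and 0.105) or shCont replicate 2 (0.0504), in a fit of those 2 groups alone (0.0675), and with both weaker filters on dim probe sets (0.081 and 0.103). Snx22 and Vps4b were the 2 sorting genes called between the hairpins, 2.9% against 11.5% of all genes (4.22% higher and 7.31% lower with shTdp-43-2). The count hung on the processing. It was 8 after centring (all genes 13.9%) and 9 after quantile normalization (all genes 14.4%). With either weaker dim filter it was 1 (all genes 9.1% and 8.25%). Vps4a changed by -0.07 and -0.06 (95% intervals -0.24 to 0.10 and -0.23 to 0.11).

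The VPS13 proteins, long lipid carriers between membranes, have the most probe sets, 75 to 110 a gene. None of the 4 was called (all genes 11.1% and 21.9%). With shTdp-43-1 they ran from -0.16 (Vps13d) to -0.01 (Vps13b) and with shTdp-43-2 from -0.20 (Vps13d) to 0.07 (Vps13c). Arrays of a group were further apart for Vps13c than for most sorting genes, at 8.89, 8.19 and 8.65 with shTdp-43-1 and 9.03, 8.74 and 8.32 with shTdp-43-2, and the 95% intervals of its change were -0.46 to 0.36 and -0.34 to 0.48. Vps45, a partner of syntaxins, Vps72, a chromatin protein, and Arhgap33 were not called, with values from -0.11 to 0.00.

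Genes that work with these complexes were taken from 6 lists of 77 genes, of which 71 were tested. The lists were chosen with earlier results of these data known, and their counts are given as deposited only. With shTdp-43-1 2 were called higher and 4 lower (8.45%; all genes 11.1%), and with shTdp-43-2 5 higher and 12 lower (23.9%; all genes 21.9%). By list, called higher and lower with the first and then the second hairpin, the counts were 2 and 0, then 2 and 2, of 14 ESCRT partners. They were 0 and 1, then 1 and 2, of 9 WASH complex genes and retromer regulators, and 0 and 1, then 0 and 2, of 15 Commander complex genes. Of 17 genes of early endosome identity 0 and 1, then 0 and 4, were called, and of 9 cargo genes 0 and 1, then 2 and 2. Called with both hairpins were Stam and Ubap1, higher, and Washc4, Slc2a1 and Mon1b, lower. These are 2 and 3 of the 71 genes, where 2.95% of all genes were called higher with both and 3.49% lower.

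Stam, an ESCRT-0 subunit that captures ubiquitinated cargo, read 9.36, 9.48 and 9.70 in shCont, 10.14, 10.22 and 10.28 with shTdp-43-1, and 10.05, 10.35 and 10.25 with shTdp-43-2. It rose by 0.70 ± 0.107 with each hairpin (adjusted p = 0.00232 and 0.00085). Ubap1, a subunit of ESCRT-I, read 9.84, 9.71 and 9.93, then 10.39, 10.21 and 10.32, then 10.50, 10.36 and 10.27, a rise of 0.48 ± 0.0925 (adjusted p = 0.00816) and 0.55 ± 0.0925 (adjusted p = 0.0015). For both genes the hairpin arrays stood above all controls. Stam2, the paralogue of Stam and named after its values were seen, went the other way: its change was -0.28 ± 0.0929 (adjusted p = 0.0752) and -0.56 ± 0.0929 (adjusted p = 0.00141).

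Washc4, a subunit of the WASH complex that grows actin on endosomes, read 10.20, 10.23 and 10.43 in shCont, 9.10, 9.32 and 9.56 with shTdp-43-1, and 9.13, 9.49 and 9.27 with shTdp-43-2. It fell by 0.96 ± 0.128 (SE; adjusted p = 0.00117) and by 0.99 ± 0.128 (adjusted p = 0.000297), with no overlap, more than any sorting gene fell. The calls of Stam, Ubap1 and Washc4 held with each hairpin in all 17 other settings. Slc2a1, the glucose transporter and a cargo of Snx27 and retromer, changed by -0.48 ± 0.108 (adjusted p = 0.0167) and -0.91 ± 0.108 (adjusted p = 0.000179). The first of these calls was lost without shCont replicate 1 or 2 or shTdp-43-1 replicate 2 or 3 (adjusted p up to 0.0775). Mon1b, part of the activator of Rab7, changed by -0.30 and -0.29 (adjusted p = 0.0398 and 0.0319). Its calls held in 7 and 12 of 17 other settings and were lost without shCont replicate 1 or 2 with either hairpin. With shTdp-43-1 the call was also lost without shCont replicate 3, shTdp-43-1 replicate 2 or 3 or shTdp-43-2 replicate 1 (up to 0.157), and with shTdp-43-2 without shTdp-43-2 replicate 1 or 3 or after centring (up to 0.135).

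Each of the 1492 kept probe sets of the sorting genes was also compared with the rest of its gene. limma's diffSplice, which uses 1 spread per gene, called 6 with shTdp-43-1 (0.402%; all probe sets 0.494%), 8 with shTdp-43-2 (0.536%; all 1.24%) and 10 in the mean (0.67%; all 0.986%). In all, 16 probe sets in 15 genes were called in some comparison and 54 genes had none. Those named below in Snx4, Vps16, Vps13d and Vps13a passed the limit on dim probe sets only through groups where they are high. They are among the 6 and the 10, and that of Snx4 also among the 8, so these counts are a description. How many of all called probe sets passed in this way was not counted. In 15 of the 16 the spread of the probe set's own values exceeded that of its gene, up to 2.99 times. When each probe set was tested against its own spread, an alternative added after the data were seen, none of the 1492 was called by limma in any comparison. The lowest adjusted p values were 0.118, 0.0874 and 0.123, and 76, 82 and 83 probe sets (5.09%, 5.5% and 5.56%) had an unadjusted p under 0.05, against 7.79%, 9.37% and 9.13% of all.

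Snx18 and Snx4 have the 2 probe sets that diffSplice called with both hairpins (0.134%; all probe sets 0.189%). In Snx18, probe set 4825824 stood, in log2 units from the rest of its gene, at -4.49, -4.59 and -4.17 in shCont, at -3.50, -2.97 and -3.76 with shTdp-43-1 and at -3.58, -3.59 and -3.76 with shTdp-43-2, with no overlap. The relative rise was 1.01 (diffSplice adjusted p = 0.000652) and 0.77 (0.00939), and with its own spread the adjusted p was 0.193 and 0.203. The probe set's own change was 0.58 with each hairpin, while the rest of the gene changed by -0.43 and -0.20. In shCont it read 6.05, 5.92 and 6.28, a mean of 6.09 beside the limit of 6.07 for keeping a probe set. Its rise is thus from a level at that limit. In Snx4, probe set 4602291 read 7.47, 6.21 and 6.77 in shCont, 5.59, 6.15 and 5.91 with shTdp-43-1 and 4.86, 6.80 and 5.67 with shTdp-43-2. Its means with the hairpins, 5.88 and 5.77, are under the limit of 6.07 for keeping a probe set, which it passed through its shCont mean of 6.82, so its fall is given as a description. The highest shTdp-43-2 array lay within the control range, and the adjusted p of 0.013 and 2.14e-05 became 0.733 and 0.444 with its own spread.

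Beside these, the largest calls in the mean of both hairpins came from Vps13a (probe set 4548165, 1.00 relative to the rest, diffSplice adjusted p = 0.0134), Vps13d (5540856, 0.81, 0.00572), Vps16 (5083715, 0.76, 0.00121), Snx25 (5159682, 0.66, 0.0397), Snx9 (4371028, 0.66, 0.0309) and Vps11 (5597268, 0.62, 0.00147). The shCont means of the probe sets in Vps13a (5.75), Vps13d (5.80) and Vps16 (6.05) are under the limit of 6.07, which these probe sets passed through the hairpin arrays, so their rises are from a level under that limit and are given as a description. With their own spread the adjusted p values of all 6 ran from 0.165 for Vps11 to 0.505 for Vps13d. The Vps11 probe set stood -0.60, -0.71 and -0.60 from its gene in shCont, 0.07, -0.42 and -0.11 with shTdp-43-1 and -0.06, 0.04 and 0.38 with shTdp-43-2. Every hairpin array was above every control array in this relative value. Like that of Snx18, this probe set was shown because diffSplice called it, so the lack of overlap is a description. The share of all probe sets without overlap was not counted.

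**Figure D4:**
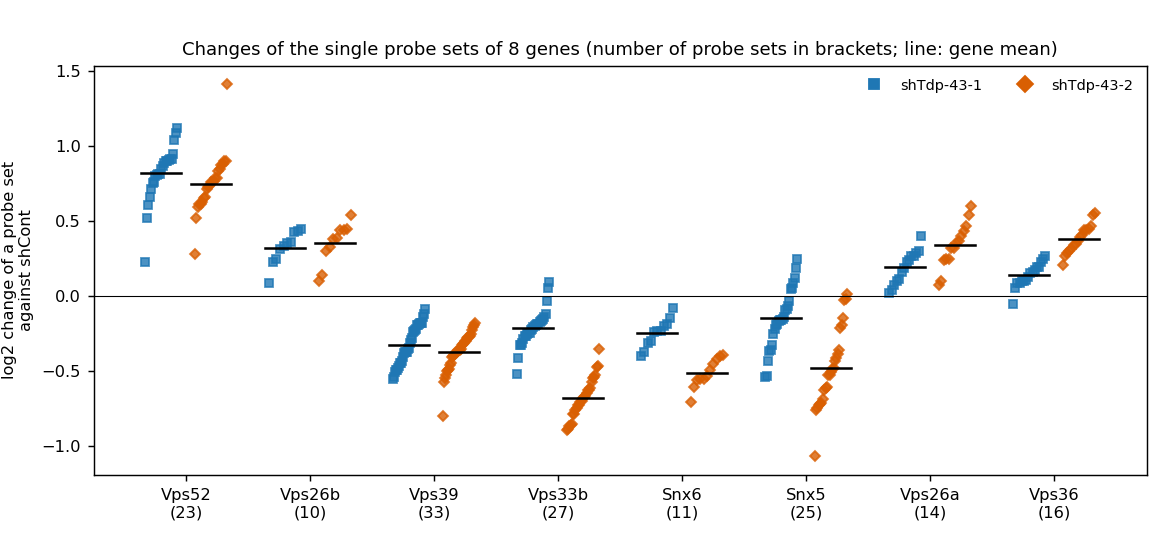
Log2 change of every kept probe set of 8 genes against shCont, with shTdp-43-1 (blue squares) and shTdp-43-2 (orange diamonds), in ascending order within a gene, with the gene's mean as a black line. The number in brackets counts probe sets. All probe sets of Vps52, Vps26b and Vps26a lie above 0 and all of Vps39 and Snx6 below 0 with both hairpins, while Snx5 has 6 above 0 with shTdp-43-1.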

How the data were processed

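The authors deposited log2 values per probe set, made with RMA in Affymetrix Expression Console, per the labels. The build is mm9 per the submitters' processing notes, with software versions not given in the sources used here. RMA evens out array distributions, so a shift of most genes is largely removed. Of 1256831 probe sets, 318760 have 1 symbol on the platform (18006 symbols current, 4227 updated, 63 kept as given). A probe set was kept where its 9-array mean reached the table's median of 6.07, and a gene needed 3 kept probe sets; 248701 probe sets in 16770 genes remained. limma 3.58.1 in R 4.3.3 (lmFit, eBayes, 6 residual degrees of freedom) fitted all 9 arrays, with an adjusted p under 0.05 as threshold. A change is the difference of mean log2 values, with no pseudocount. An exact permutation test of 3 arrays against 3 cannot go below p = 0.1 and was not used. The scripts were tested on simulated data, where diffSplice made false calls when the probe sets of a gene had unequal spreads. The number of arrays limits the precision.

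Members and lists were chosen with earlier results of these data known. The rule for named genes takes genes called in 1 direction with both hairpins, the 4 core retromer genes, the 5 largest rises and falls called in the mean, genes called between the hairpins, up to 8 probe sets and up to 6 partners; other genes are said to be named after their values were seen. Alternatives were other filters, scalings, summaries and variance models, a replicate block, leaving out each array, and fits of 2 groups. Same-numbered arrays did not deviate together in every pair (r from -0.38 to 0.59), so replicate numbers were not taken as pairs.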

Additional observations from a re-analysis of the deposited data

Results flagged for a closer look

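Of the sorting genes and their partners, 7 differed between the 2 hairpins in limma's contrast of shTdp-43-2 minus shTdp-43-1. Each had an adjusted p under 0.05 over all genes and is given here with its values. They were 1 higher and 1 lower of 69 sorting genes (2.9%) and 2 higher and 3 lower of 71 partners. This contrast called 11.5% of all genes (4.22% higher and 7.31% lower). The sorting genes were Snx22 (-0.38, adjusted p = 0.00711, held in 17 of 17 other settings) and Vps4b (0.44, adjusted p = 0.0308, held in 9 of 17).

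Among the partners, Tfrc, the transferrin receptor, differed most: its change was -0.38 with shTdp-43-1 (adjusted p = 0.0637) and 0.40 with shTdp-43-2 (adjusted p = 0.0328), and the difference of 0.78 (adjusted p = 0.00195) held in all 17 other settings. Tbc1d5, a regulator of Rab7 that binds retromer, changed by 0.04 (adjusted p = 0.834) and 0.61 (adjusted p = 0.00286), a difference of 0.57 (adjusted p = 0.00838). Vps26c, the Vps26-like subunit of the Commander complex, changed by -0.14 (adjusted p = 0.267) and -0.55 (adjusted p = 0.000652), a difference of -0.41 (adjusted p = 0.00777). Both held in all 17. Slc2a1 differed by -0.43 (adjusted p = 0.0244), held in 13 of 17, and lost without shTdp-43-1 replicate 1 or shTdp-43-2 replicate 1 or 3 and with the median of probe sets (adjusted p up to 0.0761). Commd8, a Commander subunit, changed by 0.09 and -0.29, neither called, and differed by -0.38 (adjusted p = 0.0274), held in 11 of 17. It was lost without shTdp-43-1 replicate 1, 2 or 3 or shTdp-43-2 replicate 1 or 3 and in the fit of 2 groups (up to 0.0954).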

How the results depend on the processing

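Of 1475 single values recomputed under an alternative, 1242 kept direction and side of the threshold, 206 lost a call, 18 gained one and 9 changed sign; the cause was not tested. Sign changes were Vps29 with shTdp-43-1 at 0.042 after centring, 0.023 after quantile normalization and 0.030 with the median of probe sets, and above 0 without shCont replicate 3 or shTdp-43-1 replicate 3 (-0.017 to 0.019 over all arrays left out). Snx22 with shTdp-43-1 became 0.016 after centring and 0.0048 without shTdp-43-1 replicate 3 (-0.048 to 0.0048). Tbc1d5 with shTdp-43-1 was below 0 without shTdp-43-1 replicate 1 or shCont replicate 3 (-0.053 to 0.11).

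Counts of called sorting genes that moved by over 1.5 times were as follows. With the median of probe sets 11 were called with shTdp-43-2 (17 in the main setting) and 7 in the mean (12). Of all genes 15.9% and 12.5% were then called. With an intensity trend and robust fit 5 were called with both hairpins (3) and 10 between hairpins (2). Among all genes the shares were 7.42% and 13.4%. The difference between hairpins gave 1 with either weaker dim filter, 8 after centring, 9 after quantile normalization and 9 with the replicate block. The shares of all genes were 9.1% and 8.25% with the filters, then 13.9%, 14.4% and 13.9%. Probe set calls went to 14, 17 and 20 with the 25th percentile filter and to 13, 16 and 19 without a filter (6, 8 and 10 for shTdp-43-1, shTdp-43-2 and the mean), to 15 for shTdp-43-1 with the replicate block, and to 0 with each probe set's own spread. Of all probe sets 0.691%, 1.18% and 1.01% were called with the 25th percentile filter and 0.721%, 1.08% and 0.965% without a filter. The share was 1.06% for shTdp-43-1 with the replicate block. It was 0.00523%, 0.151% and 0.0354% with each probe set's own spread. The replicate block (numbers not taken as pairs) moved no other count by over 1.5 times.

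Leaving out an array gave 1 to 5 genes with shTdp-43-1, 10 to 19 with shTdp-43-2 and 4 to 12 in the mean. It gave 1 to 7 between hairpins and 1 to 4 with both. In this order, shares of all genes were 4.68% to 13.3%, 14.8% to 23.2%, 9.73% to 20.8%, 5.75% to 11.5% and 2.93% to 6.02%. Counts with shTdp-43-1 were 1 or 2 without any shCont or shTdp-43-1 array, with shTdp-43-2 10 without shCont replicate 1 or 2, and in the mean 4 to 7 without a shCont array or shTdp-43-1 replicate 3. With both hairpins the count was 1 without shCont replicate 1 or 2 or shTdp-43-1 replicate 2 or 3. Between hairpins it was 1 without shTdp-43-2 replicate 1, shCont replicate 2 or shTdp-43-1 replicate 2, and 4 to 7 without another hairpin array. Probe sets ranged from 2 (without shCont replicate 1) to 9 with shTdp-43-1, from 6 to 14 (without shTdp-43-2 replicate 2) with shTdp-43-2, and from 4 to 12 in the mean, where they were 4, 5 and 6 without shCont replicate 1, shCont replicate 3 and shTdp-43-1 replicate 3. Of all probe sets 0.251% to 0.655%, 0.658% to 1.92% and 0.441% to 1.49% were called in these 3 comparisons. The smallest called change of a sorting gene against shCont was -0.22 (Snx22, mean). Probe sets below the median signal were not used, so nothing is said of them.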

Other observations

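The 15 Commander complex genes recycle cargo with their own Vps26- and Vps35-like subunits. With shTdp-43-1 1 was called lower (6.67%, all genes 5.96%) and with shTdp-43-2 2 (13.3%, all genes 14.1%). Values were below 0 for 10 and 12 of them, and for 49.0% and 51.3% of all genes. Vps26c was called lower with shTdp-43-2 (-0.55, adjusted p = 0.000652, limma), with arrays of 10.11, 10.30 and 10.31 against 10.80, 10.74 and 10.83 in shCont. Commd3 was called lower with shTdp-43-2 (-0.34, adjusted p = 0.0458) and Commd2 with shTdp-43-1 (-0.45, adjusted p = 0.0257). Among cargo, Sorl1, a sorting receptor for the amyloid precursor protein, was called lower with shTdp-43-2 (-0.82, adjusted p = 0.00334), on arrays of 9.27, 9.08 and 8.70 against 9.92, 9.94 and 9.67 in shCont, and Gria1, a glutamate receptor subunit, was called higher (0.32, adjusted p = 0.0179). These genes were named after their values were seen. The counts of the Commander list are as deposited. Apart from that of Vps26c, the calls in this paragraph were not followed under other settings.

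Among genes of early endosome identity, those called lower with shTdp-43-2 were Eea1 (-0.35, adjusted p = 0.0478), Pik3r4 (-0.34, adjusted p = 0.0265), Zfyve16 (-0.50, adjusted p = 0.0142) and Mon1b, 4 of 17 (23.5%; all genes 14.1%), and none was called higher. The median of the list was -0.09 with each hairpin. Of its 17 genes 14 and 13 were below 0, as were 49.0% and 51.3% of all genes. These values are as deposited. Centring the arrays moved the median of all genes from 0.01 to 0.05 with shTdp-43-1 and from -0.01 to 0.08 with shTdp-43-2. The list and the calls of Eea1, Pik3r4 and Zfyve16 were not followed under that scaling.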
